A study of Mus musculus with 8 samples.

Results

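The enzymes that make and break down prostaglandins and leukotrienes were followed in lung RNA-seq of mice given lipopolysaccharide (LPS). The 10 genes were listed by symbol and mapped from the Ensembl identifiers of the count files, and all 10 were found among 55416 listed genes. All 10 also passed edgeR's expression filter, as did 18560 genes in all. Both classes of lipid start from arachidonic acid, which phospholipases release from membranes. The cyclooxygenases Ptgs1 and Ptgs2 turn it into prostaglandin H2, from which Ptges makes prostaglandin E2, Ptgis prostacyclin and Tbxas1 thromboxane, while Hpgd inactivates prostaglandins and is abundant in lung. In the other branch 5-lipoxygenase (Alox5), helped by its activating protein Alox5ap, makes leukotriene A4, which Ltc4s joins to glutathione, and Alox15 is a separate lipoxygenase of macrophages, eosinophils and epithelium.

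The mice were female C57BL/6J, 6 to 8 weeks old. Control mice (n = 3) received DMSO by vein and then saline into the peritoneum. LPS mice (n = 3) received LPS alone, at 35 mg/kg into the peritoneum, with no solvent injection described. Dual-treated mice (n = 2) received YW3-56, an inhibitor of protein arginine deiminases dissolved in DMSO, at 10 mg/kg shortly before the same dose of LPS. As described, control and dual-treated mice received DMSO and LPS mice did not. LPS and the absence of solvent therefore cannot be told apart in the comparison of LPS with control mice, nor drug and solvent in that of dual-treated with LPS mice, so "after LPS" stands for the LPS group against control. Lungs were taken after 24 h, and the study's groups were set up to ask what LPS changes in the lung and what the inhibitor changes in LPS-treated lung. Mice keep their labelled numbers, which are 1, 2 and 4 for control, 1, 6 and 7 for LPS and 2 and 5 for dual treatment, and values are listed in that order. Total counts per library ran from 19061949 to 20908608. Levels are given as CPM, a gene's count relative to the total of its library after scaling by edgeR's TMM factors, and a gene was called at an adjusted p under 0.05 in edgeR's quasi-likelihood test over all tested genes.

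The lung label was checked against 10 lung epithelial markers. Their summed level was 68000, 69300 and 74400 CPM in the controls, 94300, 75900 and 69900 CPM in the LPS mice, and 41400 and 55300 CPM in the dual-treated mice, with Scgb1a1 the most abundant gene and no marker at 0 in any group. LPS mice 6 and 7 stood apart from the other 6 libraries. The 11 squamous epithelial markers summed to 911 and 2370 CPM there, against 2.43 CPM in LPS mouse 1 and 5.04 to 8.56 CPM in the control and dual-treated mice. In LPS mice 6 and 7 Krt4 (293 and 819 CPM) and Krt13 (286 and 887 CPM) were the most abundant. Of these 11, 10 were called higher in LPS than in control lung, and Krt16, Crct1, Sprr3, Calm4 and Krtdap were at 0 in control or dual-treated lung. The sum in LPS mouse 1 was below that of every other library. These calls therefore came from LPS mice 6 and 7 and do not describe the LPS group. The 9 skeletal muscle markers summed to 480 and 1260 CPM in LPS mice 6 and 7, where Acta1 was highest (210 and 600 CPM), and to 5.85 to 19.8 CPM elsewhere. All 7 that were tested were called higher in LPS than in control lung, with Myh2 and Tnnc2 at 0 in a group. The muscle sum was 19.8 CPM in LPS mouse 1 and 19.5 CPM in control mouse 2, so these calls too came mainly from LPS mice 6 and 7. Values without LPS mice 6 and 7 are given for many of the results below. In lung tissue, fewer cells of a type and less RNA per cell cannot be told apart.

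In LPS lung the prostaglandin-inactivating enzyme Hpgd was 7.58-fold lower than in control lung, and the prostaglandin E2 synthase Ptges was 2-fold higher. Ptgs2, the inducible cyclooxygenase, and Alox5ap were also higher. In all, 4 of 10 genes were called higher, beside 32.6% of all tested genes, and 2 of 10 were called lower, beside 33.9% of all tested genes. The share called was thus near that of the genome, and the median log2 fold change (log2FC) was -0.01 for the 10 genes and -0.01 for all tested genes. Against control lung, dual-treated lung had 3 of 10 genes called higher, beside 9.13% of all genes, and 0 of 10 called lower by edgeR, beside 7.02%. The 1 gene lower at an unadjusted p under 0.05 was Alox15, which DESeq2 called. Against LPS lung, dual-treated lung had 3 of 10 called higher, beside 31.7%, and 2 of 10 called lower, beside 27.4%. Without LPS mice 6 and 7 the calls numbered 4 for LPS against control, 3 for dual-treated against control and 3 for dual-treated against LPS, beside 10687, 3665 and 9460 of 19272 tested genes. The 3 comparisons share samples, so their values stand side by side and are not independent.

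**Figure D1:**
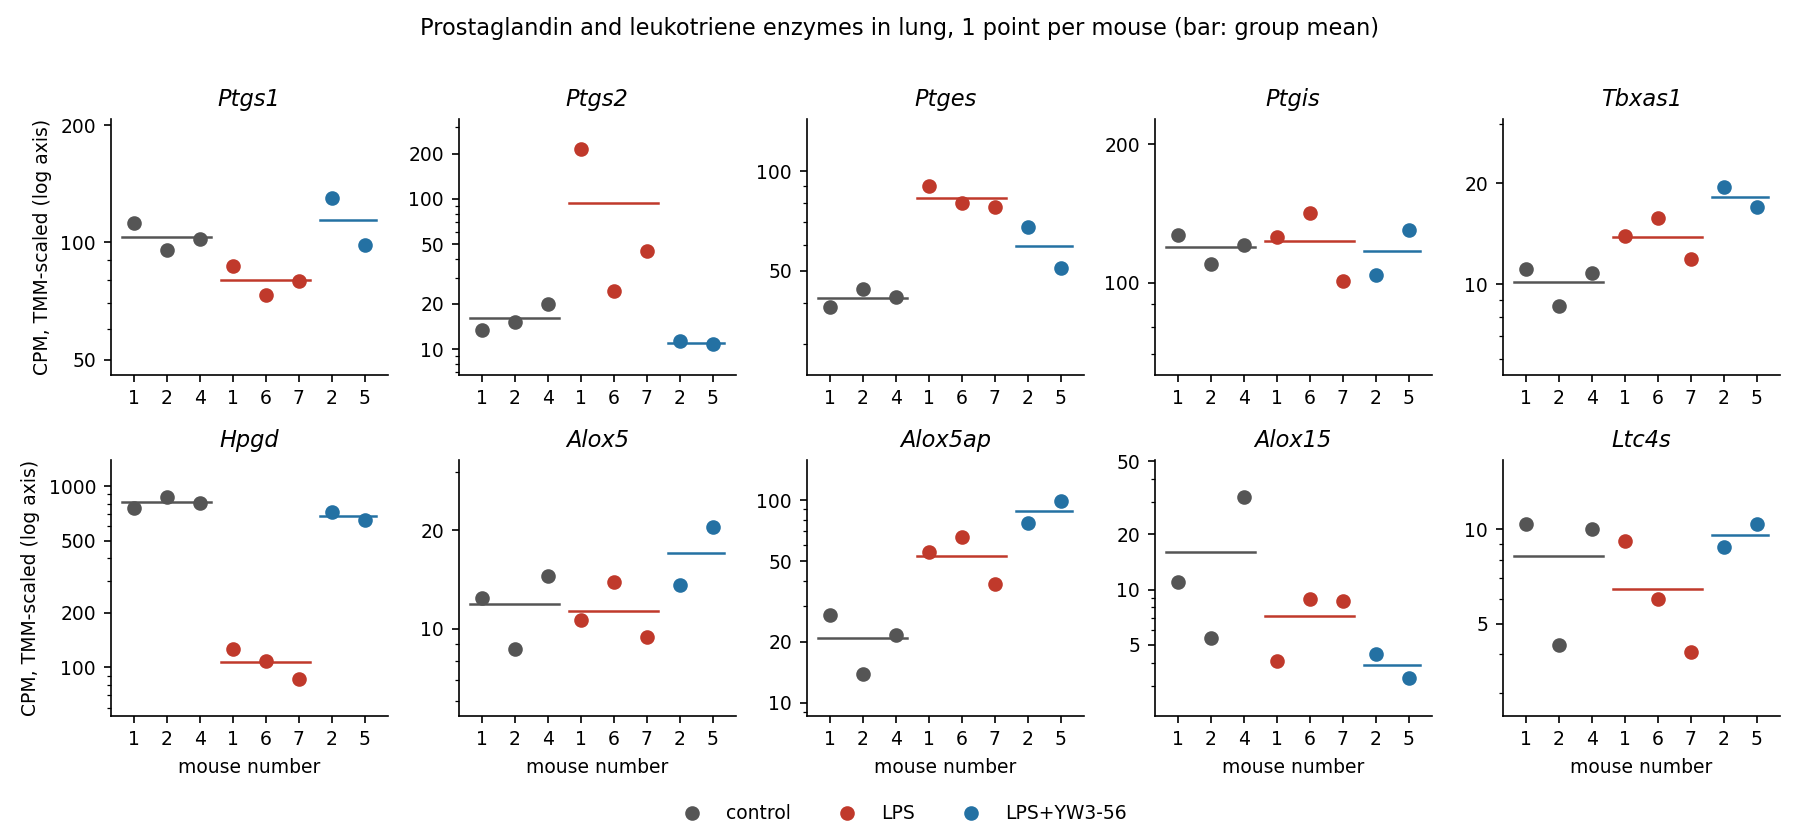
Level of each of the 10 enzymes in each of the 8 mice, in TMM-scaled CPM on a log axis that differs between panels, with mouse numbers on the x axis, 1 point per mouse and a bar at the group mean. Hpgd lies between 86.4 and 127 CPM in the LPS mice and between 653 and 875 CPM in all the others, and Ptgs2 reaches 214 CPM in LPS mouse 1 only.

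Ptgs1 (ENSMUSG00000047250, chr2:36120438-36142287, plus strand of GRCm39) encodes the constitutive cyclooxygenase. Its level was 112, 95.5 and 102 CPM in control mice 1, 2 and 4, 87.1, 73.1 and 79.8 CPM in LPS mice 1, 6 and 7, and 130 and 98.4 CPM in dual-treated mice 2 and 5. Each LPS mouse was below each mouse of the other 2 groups. The log2FC was -0.37 for LPS against control (SE 0.125, edgeR adjusted p = 0.0256) and 0.51 for dual-treated against LPS (SE 0.138, edgeR adjusted p = 0.0102), and 0.15 for dual-treated against control (edgeR adjusted p = 0.525). Both calls were small and rested on few mice: without LPS mice 6 and 7 the log2FC was -0.24 (edgeR adjusted p = 0.277) and 0.38 (edgeR adjusted p = 0.122). Leaving out control mouse 1 (-0.31), control mouse 4 (-0.38), LPS mouse 6 (-0.3) or LPS mouse 7 (-0.36) each ended the call against control, and leaving out dual-treated mouse 2 (0.27) ended the call against LPS. With library size alone the values were -0.66 and 0.84, and both were called.

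Ptgs2 (ENSMUSG00000032487, chr1:149975194-149983978, plus strand) encodes the cyclooxygenase that inflammatory signals induce. It stood at 13.5, 15.1 and 20 CPM in the controls, at 214, 24.4 and 45.2 CPM in LPS mice 1, 6 and 7, and at 11.3 and 10.8 CPM in the dual-treated mice. The 3 groups did not overlap, and LPS mouse 1 was far above the other LPS mice. The log2FC was 2.54 for LPS against control (SE 0.669, edgeR adjusted p = 0.00757) and -3.09 for dual-treated against LPS (SE 0.81, edgeR adjusted p = 0.00899). Against control the dual-treated mice had a log2FC of -0.55, which was not called (edgeR adjusted p = 0.678). LPS mouse 1 set the size of these differences. Without it the log2FC was 1.11 (edgeR adjusted p = 0.00427) and -1.66 (edgeR adjusted p = 0.00132), and without LPS mice 6 and 7 it was 3.73 (edgeR adjusted p = 1.31e-05) and -4.27 (edgeR adjusted p = 3.54e-05), with 1 LPS mouse assumed to vary like the other groups. Without dual-treated mouse 5 the difference from LPS was -3.06 and no longer called (edgeR adjusted p = 0.0505).

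Within each library, the ratio of Ptgs2 to Ptgs1 counts does not depend on scaling between libraries. It was 0.12, 0.158 and 0.196 in the controls, 2.45, 0.334 and 0.566 in the LPS mice, and 0.0872 and 0.11 in the dual-treated mice. Counts of Ptgs2 exceeded those of Ptgs1 in LPS mouse 1 and in no other mouse.

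Ptges (ENSMUSG00000050737, chr2:30779483-30820196, minus strand) encodes the inducible, membrane-bound prostaglandin E synthase that often acts with Ptgs2. Its level was 38.7, 43.9 and 41.6 CPM in the controls, 90.2, 80.2 and 78.0 CPM in the LPS mice, and 68.0 and 50.8 CPM in the dual-treated mice. The dual-treated mice lay between the other groups, with no overlap on either side. The log2FC was 1 for LPS against control (SE 0.122, edgeR adjusted p = 7.35e-05). It was 0.52 for dual-treated against control (SE 0.135, edgeR adjusted p = 0.029) and -0.48 for dual-treated against LPS (SE 0.137, edgeR adjusted p = 0.0134). Unlike Ptgs2, Ptges was alike in the 3 LPS mice, and without LPS mice 6 and 7 its log2FC was 1.13 (edgeR adjusted p = 0.000816). The 2 smaller differences were less secure. Leaving out control mouse 1 (0.47), 2 (0.56) or 4 (0.50) or dual-treated mouse 2 (0.26) ended the call against control, and leaving out dual-treated mouse 5 (-0.3) ended that against LPS, which without dual-treated mouse 2 was -0.73. Scaling by library size alone gave -0.15 against LPS (edgeR adjusted p = 0.362). That scaling moved the median of all genes by 0.32 in this comparison and by -0.28 for LPS against control, and relative to the shift the Ptges value was -0.47.

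Ptgis (ENSMUSG00000017969, chr2:167033725-167083018, minus strand) encodes prostacyclin synthase, an enzyme of vessel walls whose product relaxes vessels and restrains platelets. It was measured at 127, 110 and 121 CPM in the controls, 126, 142 and 101 CPM in the LPS mice, and 104 and 130 CPM in the dual-treated mice. The groups overlapped fully, and no difference was called, with log2FC of 0.05, -0.02 and -0.07 for LPS against control, dual-treated against control and dual-treated against LPS. The sign of each turned with library size alone. Relative to the shift of all genes under that scaling, the values were 0.04, -0.02 and -0.06.

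Tbxas1 (ENSMUSG00000029925, chr6:38852203-39061523, plus strand) encodes thromboxane synthase, found in platelets and macrophages. Its level was 11.1, 8.59 and 10.8 CPM in the controls, 13.9, 15.8 and 11.9 CPM in the LPS mice, and 19.5 and 17.0 CPM in the dual-treated mice, again without overlap between groups. The log2FC was 0.85 for dual-treated against control (SE 0.175, edgeR adjusted p = 0.0115) and 0.45 for LPS against control (SE 0.161, edgeR adjusted p = 0.0318). For dual-treated against LPS it was 0.40 and not called (edgeR adjusted p = 0.0775), although it was called with library size alone (0.73) and with upper-quartile factors (0.48). With library size alone the LPS value was 0.16, or 0.45 relative to the shift of all genes, and not called. The LPS call was lost in 9 of 17 alternatives, also without control mouse 2 (0.34), control mouse 4 (0.50), LPS mouse 1 (0.46) or LPS mouse 6 (0.35), and with LPS mice 6 and 7 both left out (0.46), and the call of dual-treated against control was lost without dual-treated mouse 2 (0.71). The gene overlaps Hipk2 and 1700025N23Rik on the opposite strand, with up to 1895 and 114 counts in a library against at least 183 for Tbxas1. The strand setting of the counting is not given in the sources used here, so the Tbxas1 values are uncertain.

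Platelet markers were set beside Tbxas1 and Ptgs1, which platelets also express. The 9 platelet markers summed to 97, 67.3 and 142 CPM in the controls, 253, 174 and 140 CPM in the LPS mice, and 79.5 and 143 CPM in the dual-treated mice, with Gp1bb at 0 in every group. Itga2b had their highest mean in control and LPS lung (37 and 81.2 CPM), and Pf4 in dual-treated lung (54.9 CPM). Of the 8 tested, 4 were called higher in LPS than in control lung, 5 were called lower in dual-treated than in LPS lung, and 1, Pf4, was called higher in dual-treated than in control lung. Pf4 had 29, 17 and 29.6 CPM in the controls, 53, 39.6 and 27.7 CPM in the LPS mice, and 49 and 60.9 CPM in the dual-treated mice. The part of platelets in the Tbxas1 and Ptgs1 values was not tested.

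Hpgd (ENSMUSG00000031613, chr8:56747543-56774082, plus strand) encodes the dehydrogenase that starts the breakdown of prostaglandins. Its level was 758, 875 and 810 CPM in the controls, 127, 109 and 86.4 CPM in the LPS mice, and 719 and 653 CPM in the dual-treated mice. Each LPS mouse was far below each mouse of the other groups. The log2FC was -2.92 for LPS against control (SE 0.157, edgeR adjusted p = 8.76e-07) and 2.67 for dual-treated against LPS (SE 0.164, edgeR adjusted p = 4.64e-06), a 6.38-fold difference. Both dual-treated mice were below all controls, but the difference of -0.25 was not called (edgeR adjusted p = 0.345). The log2FC of LPS against control stayed between -3.22 and -2.67 in all 17 alternatives, and that of dual-treated against LPS between 2.42 and 3.01. Without LPS mice 6 and 7 the values were -2.67 and 2.42. Gm45540 overlaps Hpgd on the same strand, with at most 122 counts against at least 1547 for Hpgd.

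The ratio of Ptges to Hpgd counts sets the maker of prostaglandin E2 beside the enzyme that inactivates it. It was 0.0511, 0.0502 and 0.0513 in the controls, 0.709, 0.737 and 0.903 in the LPS mice, and 0.0946 and 0.0778 in the dual-treated mice. The groups were far apart relative to their spread. The mean of the log2 ratios was 3.94 higher in LPS than in control lung, a 15.3-fold difference in the ratio. The two-sided exact permutation p was 0.1, the smallest that 3 against 3 mice allow. The dual-treated mice were 1.69-fold above the controls (exact permutation p = 0.1, again the smallest possible) and 9.08-fold below the LPS mice (exact permutation p = 0.1). Ptges and Hpgd each separated these groups, in opposite order, so their ratio had to separate them too. The permutation p-values therefore add no support. The pairs of genes were chosen after the counts were seen, and the ratios compare RNA and say nothing of the amount of either lipid.

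**Figure D2:**
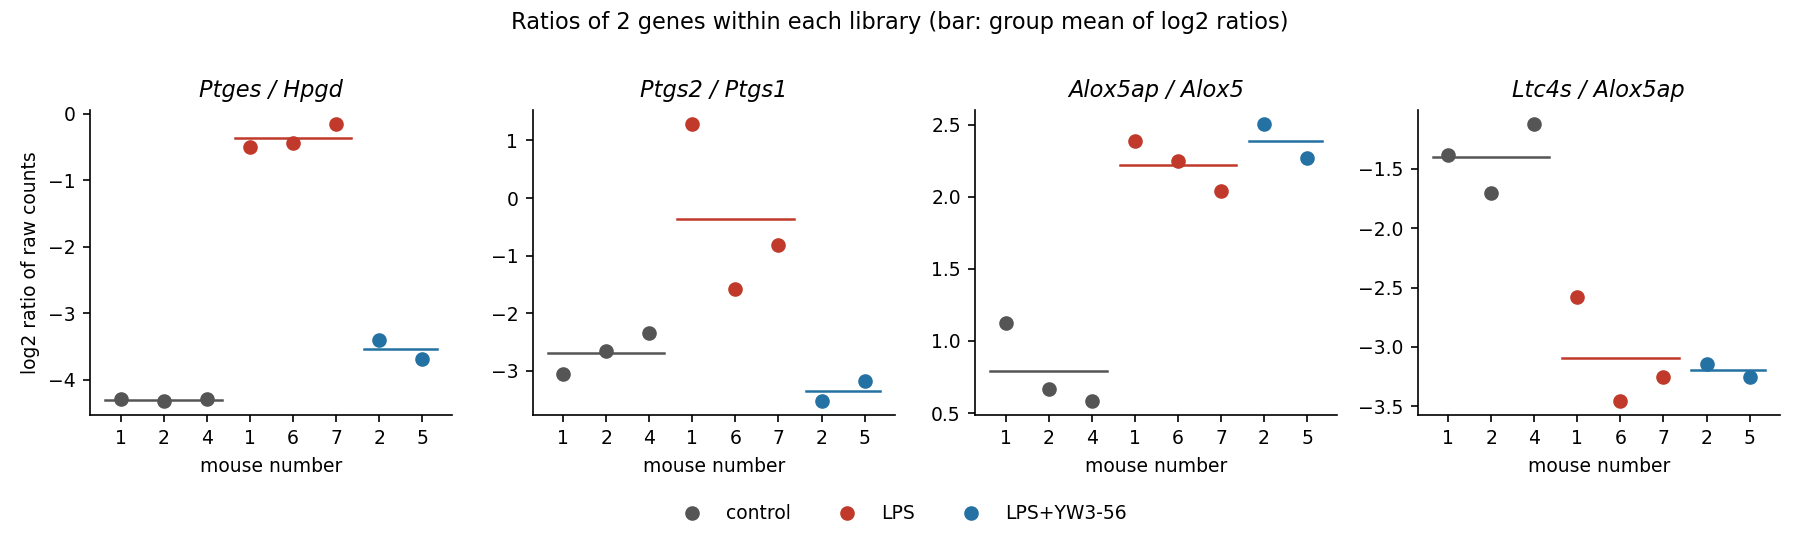
Ratios of raw counts of 2 enzymes within the same library, on a log2 scale, with mouse numbers on the x axis, 1 point per mouse and a bar at the group mean. The Ptges to Hpgd ratio runs from 0.0502 to 0.0513 in the controls, from 0.709 to 0.903 in the LPS mice and from 0.0778 to 0.0946 in the dual-treated mice, and LPS mouse 1 stands apart in the Ptgs2 to Ptgs1 ratio.

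Endothelial and stromal markers were set beside Hpgd and Ptgis. The 10 endothelial markers summed to 3300, 3680 and 3790 CPM in the controls, 2310, 1910 and 1880 CPM in the LPS mice, and 3160 and 3460 CPM in the dual-treated mice. Cdh5 and Pecam1 had similar means in control lung (662 and 657 CPM), Cdh5 was highest in LPS lung (746 CPM) and Pecam1 in dual-treated lung (993 CPM). Of the 10, 8 were called lower in LPS than in control lung and 5 higher in dual-treated than in LPS lung. After LPS the log2FC was -2.97 for Tie1, -2.6 for Kdr and -3.25 for Aplnr, while Cdh5 (0.17) and Cldn5 (-0.02) were not called. The 7 fibroblast markers summed to 4000, 4040 and 4300 CPM, to 1020, 1180 and 1070 CPM, and to 2290 and 2950 CPM in the same order, with 3 of 7 called lower and 1 called higher after LPS. Inmt alone gave 2930, 2960 and 3280 CPM of this sum in the controls, 177, 161 and 145 CPM in the LPS mice, and 1250 and 2170 CPM in the dual-treated mice. It was the most abundant by its mean in control and dual-treated lung, and Pdgfra was in LPS lung (307 CPM). The 8 smooth muscle markers summed to 371, 445 and 390 CPM, to 341, 429 and 498 CPM, and to 251 and 300 CPM, with 1 of 8 called higher and 2 lower after LPS. Des had the highest mean in control and dual-treated lung (128 and 80.9 CPM), and Acta2 in LPS lung (134 CPM). No marker of these 3 lists was at 0 in any group. Of the 10 epithelial markers, Sftpc, Sftpb, Lamp3 and Rtkn2 were called lower after LPS, and Scgb1a1, which carries the summed level, and Foxj1 were called higher. Of the 3 markers of alveolar type 1 cells, Rtkn2 had a log2FC of -5.83 after LPS and 4.77 in dual-treated against LPS lung, both called. The corresponding values were -0.26 and -0.68 for Ager, the second called, and -0.11 and -0.18 for Hopx, neither called. The part of all these cells in the fall of Hpgd was not tested.

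Alox5 (ENSMUSG00000025701, chr6:116387032-116438139, minus strand), the enzyme that starts leukotriene synthesis, was measured at 12.4, 8.68 and 14.5 CPM in the controls, 10.6, 13.9 and 9.43 CPM in the LPS mice, and 13.6 and 20.5 CPM in the dual-treated mice. The groups overlapped, and no difference was called. The log2FC was -0.07 for LPS against control (edgeR adjusted p = 0.804), 0.53 for dual-treated against control (edgeR adjusted p = 0.212) and 0.60 for dual-treated against LPS (edgeR adjusted p = 0.0758). This last value was called without LPS mouse 6 (0.77), without dual-treated mouse 2 (0.84), with no filter on low counts (0.62) and with library size alone (0.92).

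Alox5ap (ENSMUSG00000060063, chr5:149196003-149227762, plus strand) encodes the membrane protein that presents arachidonic acid to 5-lipoxygenase. It stood at 27.1, 13.8 and 21.7 CPM in the controls, 55.2, 65.8 and 38.7 CPM in the LPS mice, and 77.4 and 98.8 CPM in the dual-treated mice. The groups did not overlap, and the dual-treated mice were highest. The log2FC was 1.35 for LPS against control (SE 0.255, edgeR adjusted p = 0.00116) and 2.08 for dual-treated against control (SE 0.276, edgeR adjusted p = 0.00129), a 4.22-fold difference. Both were called in all 17 alternatives. For dual-treated against LPS it was 0.73 (SE 0.271, edgeR adjusted p = 0.0422), which was lost in 8 of 17 alternatives: without LPS mouse 1 (0.75), LPS mouse 7 (0.53), control mouse 4 (0.70), dual-treated mouse 2 (0.87) or dual-treated mouse 5 (0.52), without LPS mice 6 and 7 together (0.67), with RLE factors (0.67) and under the study's fold criterion.

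The ratio of Alox5ap to Alox5 counts was 2.18, 1.59 and 1.5 in the controls, 5.22, 4.75 and 4.11 in the LPS mice, and 5.69 and 4.81 in the dual-treated mice. It was 2.7-fold higher in LPS than in control lung, and dual-treated lung was 3.02-fold above control (two-sided exact permutation p = 0.1 for each, the smallest possible). LPS and dual-treated mice overlapped (exact permutation p = 0.4).

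Alox15 (ENSMUSG00000018924, chr11:70234970-70242858, minus strand) was the most variable of the 10 genes among controls. It stood at 11, 5.44 and 31.9 CPM there, at 4.09, 8.89 and 8.71 CPM in the LPS mice, and at 4.49 and 3.29 CPM in the dual-treated mice. Control mouse 4 was above all others, and the other controls overlapped the LPS mice. The log2FC was -1.15 for LPS against control (SE 0.562, edgeR adjusted p = 0.0952), -2.05 for dual-treated against control (SE 0.674, edgeR adjusted p = 0.0692) and -0.89 for dual-treated against LPS (edgeR adjusted p = 0.266), none of them called. Without control mouse 4 the difference of LPS from control was -0.17, and without control mouse 2 both differences from control were called, at -1.57 and -2.46. Both were also called with no filter on low counts (edgeR adjusted p = 0.00576 and 0.00057), and without control mouse 4 that of dual-treated mice was -1.1. Without LPS mice 6 and 7 the difference of LPS from control was -1.97 and that of dual-treated from LPS -0.08, neither called. With DESeq2 the difference of dual-treated from control was called (-2.07, DESeq2 adjusted p = 0.0469). That difference also met the study's criterion of fold and unadjusted p (4.14-fold, edgeR unadjusted p = 0.0132).

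Resident macrophages of the peritoneal cavity are a known source of Alox15. The 8 peritoneal macrophage markers summed to 220, 211 and 262 CPM in the controls, 146, 111 and 131 CPM in the LPS mice, and 228 and 339 CPM in the dual-treated mice. Of these 8, 1 was called higher and 3 lower after LPS, and none was at 0 in a group. Icam2, which endothelium also expresses, alone gave 122, 138 and 136 CPM of this sum in the controls, 22.2, 13.3 and 18 CPM in the LPS mice, and 120 and 225 CPM in the dual-treated mice. It had the highest mean in control and dual-treated lung, whereas Gata6 had the highest in LPS lung (64.3 CPM). Gata6 was the 1 called higher after LPS. Its control mean was 47.8 CPM, beside 2.78 CPM for Timd4 and 0.77 CPM for Vsig4, so the sum rests largely on few of the 8 genes. Prg4, Garnl3, Cd5l and Serpinb2 were highest among controls in mouse 4, as was Alox15, whereas Gata6, Timd4 and Vsig4 were highest in mouse 1 and Icam2 in mouse 2. Of the 5 eosinophil markers, Epx was at 0 in the control and dual-treated mice and had 1 count in 1 LPS mouse. The 5 summed to 1.08, 0.986 and 1.84 CPM in the controls, 2.55, 2.14 and 2.57 CPM in the LPS mice, and 11.8 and 8.21 CPM in the dual-treated mice, with 2 of 3 tested called higher after LPS. Ear6 had the highest mean in control and dual-treated lung (0.568 and 7.35 CPM), and Prg2 in LPS lung (1.22 CPM). The part of these macrophages and eosinophils in the Alox15 values was not tested.

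Ltc4s (ENSMUSG00000020377, chr11:50127288-50129443, minus strand), which makes leukotriene C4, had 10.4, 4.27 and 9.98 CPM in the controls, 9.20, 6.01 and 4.07 CPM in the LPS mice, and 8.76 and 10.4 CPM in the dual-treated mice. No difference was called, with log2FC of -0.35 (edgeR adjusted p = 0.416), 0.22 (edgeR adjusted p = 0.763) and 0.57 (edgeR adjusted p = 0.245) for LPS against control, dual-treated against control and dual-treated against LPS. Without LPS mice 6 and 7 the first was 0.17 and the last 0.05. The ratio of Ltc4s to Alox5ap counts was 0.383, 0.308 and 0.461 in the controls, 0.167, 0.0912 and 0.105 in the LPS mice, and 0.113 and 0.105 in the dual-treated mice. Ltc4s overlaps the noncoding Gm26542 on the opposite strand, with up to 37 counts against at least 73, so its values are uncertain too. The ratio was below the controls in all 5 LPS-treated mice, with or without YW3-56.

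**Figure D3:**
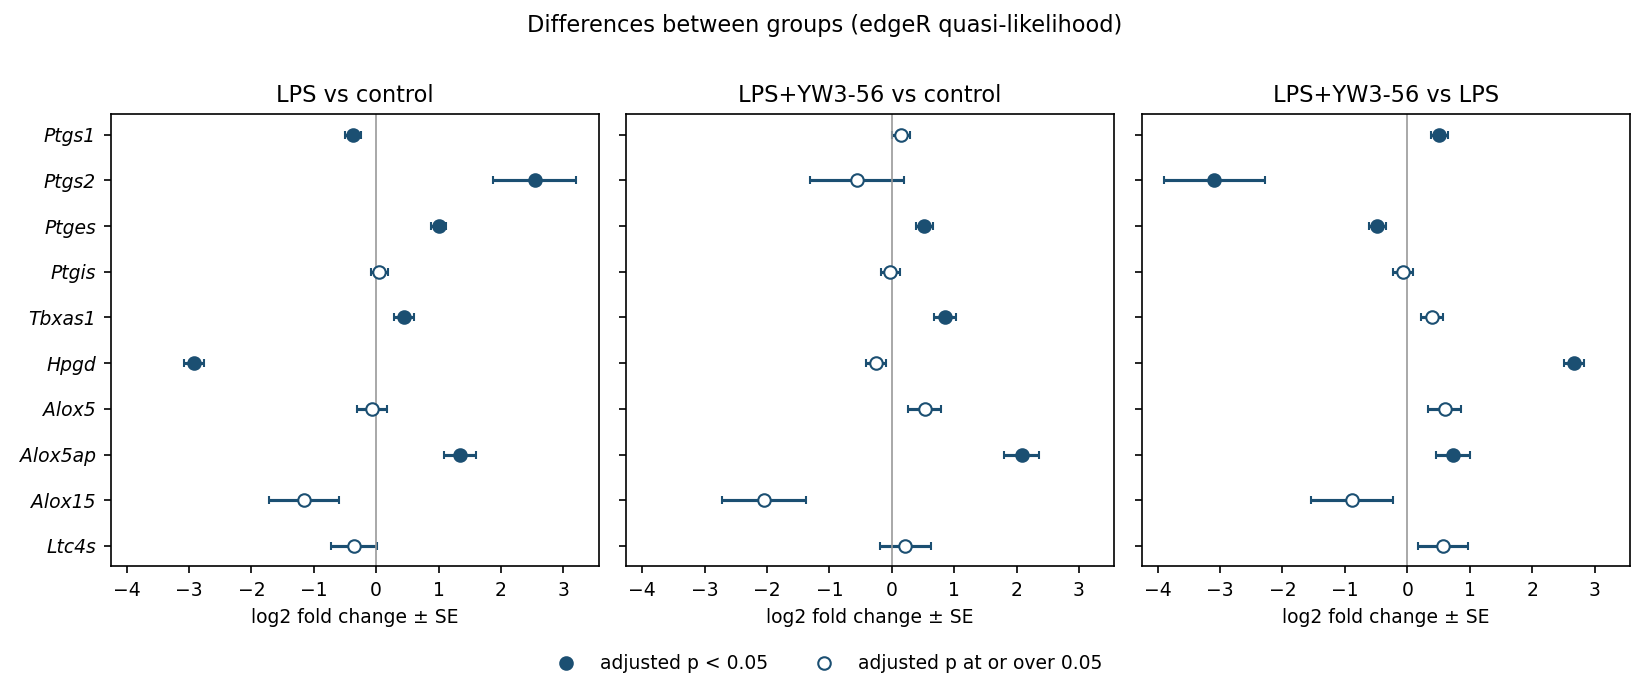
log2 fold change of the 10 enzymes in each comparison, with bars of 1 SE from edgeR's quasi-likelihood fit, filled points where the adjusted p was under 0.05 and open points elsewhere. Hpgd lies at -2.92 for LPS against control and at 2.67 for dual-treated against LPS, and Alox5ap is the highest of the 10 for dual-treated against control at 2.08.

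Markers of white blood cells were set beside the leukotriene genes, which these cells express. The 11 neutrophil markers summed to 349, 276 and 198 CPM in the controls, 2810, 3690 and 2530 CPM in the LPS mice, and 2100 and 2600 CPM in the dual-treated mice. Ltf had their highest mean in control lung (95.8 CPM), and S100a9 in LPS and dual-treated lung (1470 and 1000 CPM). All 11 were called higher in LPS than in control lung, and 8 of 11 in dual-treated than in control lung. Between the treated groups they went both ways, with 4 called higher and 3 lower in dual-treated than in LPS lung. The 9 monocyte markers summed to 171, 170 and 188 CPM, to 469, 545 and 342 CPM, and to 570 and 802 CPM in the same order. Csf1r had the highest mean in control and dual-treated lung (107 and 217 CPM), and Plac8 in LPS lung (195 CPM). Of the 9 monocyte markers, 6 were called higher and 3 lower after LPS, and 8 were called higher in dual-treated than in control lung. In dual-treated against LPS lung 5 were called higher and 1 lower. The 10 alveolar macrophage markers, led by Chil3, summed to 863, 754 and 789 CPM, to 854, 1020 and 610 CPM, and to 1690 and 1590 CPM. Of these, 5 were called lower after LPS, 6 were called higher in dual-treated than in LPS lung, and 1, Marco, was called higher in dual-treated than in control lung. Fabp4 gave 741 of the 1690 CPM in dual-treated mouse 2 and 38.2 CPM in mouse 5. No marker of these 3 lists was at 0 in any group. Alox5ap was highest in the dual-treated mice, as were the summed monocyte and alveolar macrophage levels, the second without a call for 9 of its 10 genes against control. So were the neutrophil markers Retnlg, Mmp8, Cxcr2 and Csf3r. Their means were 241, 70.9, 37.6 and 86.7 CPM in dual-treated lung and 85.7, 33.5, 13.5 and 42 CPM in LPS lung. The neutrophil sum was not highest there, and 3 of its 11 genes were called lower in dual-treated than in LPS lung. The part of all these cells in the rise of Alox5ap was not tested. The mast cell and basophil list was carried by Hdc, which gave 394 of 400 CPM in LPS mouse 1 and which neutrophils express too. Its 9 genes summed to 47.6, 58 and 66.7 CPM in the controls, 400, 367 and 365 CPM in the LPS mice, and 99.2 and 79.6 CPM in the dual-treated mice, with Mcpt8 at 0 in the dual-treated mice. Of the 6 tested, 2 were called higher and 1 lower after LPS.

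Levels of different genes were compared as CPM per kilobase of annotated exons. By its mean Hpgd was highest in each group, at 264 in control lung, 34.8 after LPS and 222 after dual treatment. Ptgis followed at 33.2, 34.4 and 32.8, and Ptgs1 at 26.6, 20.6 and 29.4. In LPS lung the Hpgd range, 28.0 to 41.2, overlapped that of Ptgis, 28.3 to 39.6. Ptgs2 exceeded Hpgd in LPS mouse 1 (41.7 against 41.2), and Ptgis exceeded Hpgd in LPS mice 6 and 7 (39.6 against 35.2 and 28.3 against 28.0). In control lung Hpgd was above all others. After Ptgis and Ptgs1, Ptges came next in control lung, at 8.79 to 9.97, and overlapped Ltc4s and Alox15. The levels from Ltc4s down to Alox5 overlapped with their neighbours. Alox5ap was at rank 7 in control lung, 6 in LPS lung and 4 in dual-treated lung. Tbxas1 was lowest in each group, at a mean of 0.804, 1.1 and 1.45, but its exon length of 12631 bases sums many transcript forms and lowers this value.

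For 9 of the genes, the tested genes with the most similar profile were sought among 15570 candidates, by the root-mean-square difference of centred log2 CPM over the 8 libraries. The nearest to Hpgd were Kcnj13 (0.125), Socs5 (0.133) and Ttc21b (0.152). Socs5 stood at 61.1, 60 and 58.7 CPM in the controls, 11.3, 9.64 and 7.42 CPM in the LPS mice, and 58.9 and 56.2 CPM in the dual-treated mice. Ptgs2 lay nearest to Entpd4b (0.246), Ccn1 (0.364) and Atf3 (0.488). Ccn1 reached 1050 CPM in LPS mouse 1 against 261 and 384 CPM in LPS mice 6 and 7, so it too was highest in LPS mouse 1. Srgap1 (0.0672), Psmd2 (0.0676) and Fbxl5 (0.0769) were nearest to Ptges. For Ptgs1 they were Meox1 (0.0639), Rrp8 (0.0906) and Serinc3 (0.0973), for Ptgis Snrnp27 (0.0561), Rabac1 (0.0622) and Vps28 (0.0643), and for Tbxas1 Gm57857 (0.0573), Pop7 (0.0797) and Rrm1 (0.0934). For Alox5 they were Zfp382 (0.112), Unc119 (0.163) and Plcxd1 (0.164), and for Ltc4s Proz (0.27), Skap1 (0.286) and H2-DMb1 (0.298). Alox15 had no close neighbour, the nearest being Gm10222 at 0.537. Among the 10 genes themselves Ptgs2 and Hpgd were farthest apart, at 2.53 on the log2 scale.

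The other steps of the pathway were described with 54 further genes, of which 49 were tested. In LPS against control lung 16 were called higher and 17 lower, with a median log2FC of -0.05, beside 32.6% and 33.9% of all tested genes, so the pathway's shares were near those of the genome. In dual-treated against control lung 8 were higher and 2 lower (9.13% and 7.02% of all genes), and in dual-treated against LPS lung 20 were higher and 11 lower (31.7% and 27.4%), with medians of 0.08 and 0.19. The counts for single groups of genes are to be read against the same shares. The medians over all tested genes were -0.01, 0 and 0.06. Of the genes called in a comparison, 37 had a mean of at least 1 CPM and are named here. The others called were Pla2g2e, Ptgdr2 and Ltb4r2, which are named after their values were seen and had at most 30 counts in a library.

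Of 12 tested phospholipases A2, which release arachidonic acid or related lipids, 2 were called higher and 4 lower after LPS. The cytosolic Pla2g4a, the enzyme best known for supplying this pathway, had 11.8, 12.2 and 9.66 CPM in the controls, 17.7, 19.9 and 16.7 CPM in the LPS mice, and 26.7 and 20.8 CPM in the dual-treated mice. It rose in both treated groups against control, by 0.69 (edgeR adjusted p = 0.00278) and 1.08 (edgeR adjusted p = 0.00257) on the log2 scale, although with library size alone the first was 0.40 and not called. Pla2g12a rose 2.4-fold after LPS (edgeR adjusted p = 4.29e-06) and was 2.54-fold lower in dual-treated than in LPS lung (edgeR adjusted p = 1.45e-05). The lysosomal Pla2g15 and Pla2g6 moved the other way, with log2FC of -1.66 and -0.56 after LPS and 1.72 and 0.9 in dual-treated against LPS lung. Pla2g4b had 35, 50 and 50 counts in the controls, 1, 2 and 3 counts in the LPS mice and 25 and 42 counts in the dual-treated mice, and was called in both comparisons with LPS lung. Pla2g1b was called lower after LPS (-0.78, edgeR adjusted p = 0.0337), but not without LPS mouse 6 (-0.64), LPS mouse 7 (-0.64), control mouse 1 (-0.76) or control mouse 4 (-0.63), and its value without LPS mice 6 and 7 was -0.31.

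Of 7 other prostanoid synthases, 4 were called higher and 1 lower after LPS, and 4 lower and 2 higher in dual-treated against LPS lung. In the comparisons of LPS with control and of dual-treated with LPS lung, the other prostaglandin E synthases had the same direction as Ptges, and neither was called in dual-treated against control lung (0.4 for Ptges2 and -0.25 for Ptges3). Ptges2 had a log2FC of 1.13 after LPS (edgeR adjusted p = 8.71e-05) and -0.72 in dual-treated against LPS lung (edgeR adjusted p = 0.00357), and Ptges3, also a chaperone partner, 0.59 (edgeR adjusted p = 0.000413) and -0.84 (edgeR adjusted p = 0.000156). With library size alone the second Ptges2 value was -0.39 and not called, and the Ptges3 values were 0.3 and -0.51, both called. The prostaglandin D synthases Hpgds and Ptgds were low, at most 6.53 and 2.96 CPM, with log2FC of 1.02 and 2.07 after LPS and -1.23 and -1.49 in dual-treated against LPS lung. Without LPS mice 6 and 7 the Hpgds values were 0.68 and -0.89 and neither was called, and the Ptgds difference of dual-treated from LPS lung was -1.08 and not called. The Hpgds call after LPS was also lost without control mouse 2 (0.89), and both calls against LPS lung were lost without dual-treated mouse 5 (-1.07 and -1.33). Library size alone ended the calls of Hpgds (0.75 and -0.92) and that of Ptgds against LPS lung (-1.18). The carbonyl reductase Cbr1 was 2.12-fold lower after LPS (edgeR adjusted p = 0.00015) and 1.94-fold higher in dual-treated than in LPS lung (edgeR adjusted p = 0.000786). Prxl2b ranged from 1.84 to 7.48 CPM among the LPS mice, and its call of 1.2 in dual-treated against LPS lung was lost when any of 6 libraries was left out, the exceptions being LPS mouse 7 and dual-treated mouse 2. Its value was then between 0.7 without dual-treated mouse 5 and 1.2 without control mouse 1 or 2, and 2.46 without LPS mice 6 and 7. The call was also lost with RLE factors (1.14) and with the 2 compared groups only (1.17).

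Of 5 genes of prostaglandin transport and breakdown, 3 were called lower and 1 higher after LPS, and 3 higher and 1 lower in dual-treated against LPS lung. Slco2a1 carries prostaglandins into cells, where Hpgd acts on them. It had 528, 529 and 574 CPM in the controls, 389, 311 and 283 CPM in the LPS mice, and 666 and 714 CPM in the dual-treated mice, and the LPS mice were below all others. Its log2FC was -0.73 after LPS (SE 0.132, edgeR adjusted p = 0.000876), or -0.48 without LPS mice 6 and 7, and 1.07 in dual-treated against LPS lung (SE 0.144, edgeR adjusted p = 0.000209). The exporter Abcc4 went the other way, at 11.1, 10.4 and 10.5 CPM in the controls, 37.1, 32.2 and 37.6 CPM in the LPS mice, and 16.1 and 13 CPM in the dual-treated mice. It was 3.34-fold higher after LPS (edgeR adjusted p = 3.24e-06) and 2.45-fold lower in dual-treated than in LPS lung (edgeR adjusted p = 6.35e-05). The prostaglandin reductases Ptgr2 and Ptgr3 were lower after LPS, with log2FC of -1.36 and -0.76, and higher in dual-treated than in LPS lung, with log2FC of 1.34 and 0.67.

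Of 8 tested prostanoid receptors, 1 was called higher and 4 lower after LPS. The higher one was Ptger4, a prostaglandin E2 receptor of white blood cells and other cells, at 4.65, 4.18 and 3.72 CPM in the controls, 17.6, 21.8 and 15.1 CPM in the LPS mice, and 10 and 15.2 CPM in the dual-treated mice. It was 4.34-fold above control in LPS lung (edgeR adjusted p = 2.23e-05) and 3.02-fold above control in dual-treated lung (edgeR adjusted p = 0.00199). Ptger2, a receptor for the same lipid, was lower after LPS, with a log2FC of -0.95 (edgeR adjusted p = 0.0118), not called without LPS mice 6 and 7 at -0.97. The prostaglandin F receptor Ptgfr and the thromboxane receptor Tbxa2r were 6.79-fold and 5.55-fold lower in LPS than in control lung (edgeR adjusted p = 0.000164 and 0.000423). In dual-treated against LPS lung Ptgfr, Tbxa2r, Ptger2 and the prostacyclin receptor Ptgir were higher, with log2FC of 1.73, 1.86, 1.11 and 0.92. Without dual-treated mouse 5 the Ptgfr, Ptger2 and Ptgir values were 0.77, 0.65 and 0.56 and not called, and without LPS mice 6 and 7 those of Ptgfr (1.75) and Ptgir (0.57) were not called. Ptgir was also above control in dual-treated lung (1.17, edgeR adjusted p = 0.0121), though not without mouse 5 (0.8).

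Of 9 other leukotriene enzymes and transporters, 3 were called higher and 4 lower after LPS. Lta4h, which makes leukotriene B4, had 59.3, 60.8 and 64.7 CPM in the controls, 35.7, 40.7 and 29.5 CPM in the LPS mice, and 64.9 and 71.6 CPM in the dual-treated mice. It was 1.75-fold lower after LPS (edgeR adjusted p = 0.000273) and 1.93-fold higher in dual-treated than in LPS lung (edgeR adjusted p = 0.000252). The glutathione transferase Mgst3 moved likewise, with log2FC of -1.15 and 0.96. Mgst2 was called in dual-treated against LPS lung alone (0.56, edgeR adjusted p = 0.0387). That call was lost, at 0.37 to 0.68, when any library but LPS mouse 6 was left out. It was also lost with DESeq2 (0.5), RLE factors (0.5), the 2 compared groups only (0.54) and the study's criterion. The value was larger with library size alone (0.88, edgeR adjusted p = 0.00844) and without LPS mice 6 and 7 (0.85). Abcc1, which exports leukotriene C4, rose 3.12-fold after LPS (edgeR adjusted p = 1.52e-05) and was 2.2-fold lower in dual-treated than in LPS lung (edgeR adjusted p = 0.000481). Outside the cell, Ggt1 and then Dpep1 and Dpep2 trim leukotriene C4 in steps. Ggt1 rose 5.67-fold after LPS (edgeR adjusted p = 0.000342), while Dpep1, at 199, 216 and 230 CPM in the controls, was 77.5, 54.1 and 68.5 CPM in the LPS mice and 89.8 and 145 CPM in the dual-treated mice. Dpep1 was below control in both groups, by log2FC of -1.69 and -0.88, and 0.81 above LPS lung in dual-treated lung, where the call was lost without dual-treated mouse 5 (0.41) or LPS mice 6 and 7 (0.59). The Ggt1 difference of dual-treated from control lung, 1.68, was lost without dual-treated mouse 5 (0.67) or any control mouse (1.43 to 1.84). The Dpep1 difference of dual-treated from control lung was lost without control mouse 2 (-0.87), control mouse 4 (-0.85) or dual-treated mouse 2 (-0.6). Dpep2 had 18, 13 and 20 counts in the controls, 1, 1 and 7 counts in the LPS mice and 57 and 61 counts in the dual-treated mice, and it shares its symbol with an overlapping identifier, so its value is uncertain. After LPS its log2FC was -2.19, or -3.64 without LPS mouse 7 and -3.63 without LPS mice 6 and 7. Ggt5 was called after LPS (0.43, edgeR adjusted p = 0.0402), but not without LPS mouse 1 (0.39) or 6 (0.45), control mouse 1 (0.45) or 2 (0.33), or LPS mice 6 and 7 (0.52), and with library size alone it was 0.14. Cyp4f18, which inactivates leukotriene B4 in white blood cells, had 8.66, 8.21 and 9.89 CPM in the controls, 8.78, 16.1 and 8.65 CPM in the LPS mice, and 36.0 and 38.7 CPM in the dual-treated mice. In dual-treated lung it was 4.19-fold above control (edgeR adjusted p = 0.000756) and 3.35-fold above LPS lung (edgeR adjusted p = 0.000282).

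Of 4 tested leukotriene receptors, 2 were called higher and 1 lower after LPS. The leukotriene B4 receptor Ltb4r1, a receptor of neutrophils, had 4.16, 3.47 and 3.31 CPM in the controls, 15.7, 19.8 and 16.6 CPM in the LPS mice, and 18.2 and 19.8 CPM in the dual-treated mice. It was 4.76-fold higher in LPS lung (edgeR adjusted p = 3.02e-06) and 5.21-fold higher in dual-treated lung (edgeR adjusted p = 4.95e-05) than in control lung, and was not called between the treated groups. Cysltr1, a receptor of the cysteinyl leukotrienes, had 104, 121 and 80 counts in the controls, 14, 7 and 11 in the LPS mice and 92 and 102 in the dual-treated mice. It was 7.76-fold lower after LPS (edgeR adjusted p = 3.21e-05) and 6.97-fold higher in dual-treated than in LPS lung (edgeR adjusted p = 0.000109). Cysltr2 was lower in dual-treated than in control lung (-1.29, edgeR adjusted p = 0.0315) and than in LPS lung (-1.33, edgeR adjusted p = 0.00814), the first not without dual-treated mouse 2 (-1.1) or any control mouse (-1.37 to -1.16).

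Of 4 other lipoxygenases tested, 3 were called higher after LPS. Alox12e had 10, 12 and 9 counts in the controls, 116, 179 and 169 in the LPS mice and 57 and 20 in the dual-treated mice, an 18-fold difference for LPS against control (edgeR adjusted p = 2.02e-05). It was 5.12-fold lower in dual-treated than in LPS lung (edgeR adjusted p = 0.00114), and its call against control, 1.81, was lost without dual-treated mouse 2 (0.81) or any control mouse (1.68 to 1.92). Alox12b, an enzyme of the skin barrier, had 2, 0 and 2 counts in the controls, 2, 78 and 270 counts in LPS mice 1, 6 and 7, and 0 and 3 counts in the dual-treated mice. Among these 8 mice it was above 3 counts in the 2 with squamous and muscle markers, whose part was not tested. It was called in both comparisons with LPS lung, the second not without dual-treated mouse 2. Without LPS mouse 6, LPS mouse 7 or both it did not pass the expression filter and was not tested. Aloxe3, its partner in skin, had 1.84, 3.18 and 6.42 CPM in LPS mice 1, 6 and 7 against 0.892 to 1.86 CPM in the controls, and its log2FC of 1.39 after LPS was 0.34 without LPS mice 6 and 7 and no longer called. That call was also lost without LPS mouse 7 (0.8), control mouse 2 (1.13) or control mouse 4 (1.48), and with library size alone (1.14). Alox12, the platelet lipoxygenase, had 11, 13.9 and 21.6 CPM in the controls, 29.8, 19.2 and 15.3 CPM in the LPS mice, and 4.40 and 13.3 CPM in the dual-treated mice. Like the platelet sum it was highest in LPS mouse 1 and lowest in dual-treated mouse 2 among the treated mice, and their part was not tested. Its call of -1.27 in dual-treated against LPS lung was lost without LPS mouse 1 (-0.97), LPS mouse 6 (-1.35), control mouse 2 (-1.27) or dual-treated mouse 2 (-0.71), with library size alone (-0.93) and with the 2 compared groups only (-1.29), and was -2.3 without dual-treated mouse 5.

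Promoters of the 10 genes were searched for motifs. RefSeq (GRCm38.p6) promoters, 250 bases before and 50 after the gene start, were held for 7 of the 10 genes: Ptgs1, Ptgs2, Ptges, Tbxas1, Hpgd, Alox5 and Ltc4s. The 3 others are Ptgis, Alox5ap and Alox15. Each of the 7 matched GRCm39 at a single place on its chromosome. Searched on both strands, the C/EBP-like motif TTNNGNAA was in the promoters of Ptgs2, Ptges and Hpgd, and in 40.7% of all 32851 promoters. The GC box GGGCGG was in Ptgs2, Ptges, Hpgd and Alox5 and in 35.7% of all promoters, and the TATA motif TATAAA was in Tbxas1 and Hpgd and in 13.6%. The TATA matches lay at bases 5 to 10 after the start in Hpgd and within -13 to -6 in Tbxas1. Both places are inside an annotated exon of the gene itself. The AP-1 motif TGANTCA was in Tbxas1 (7.81% of all promoters), the kB-like motif GGNNTTTCC in Ltc4s (5.82%), and the CRE motif TGACGTCA in none of the 7 (1.79%). Matches to different motifs did not overlap in these promoters. For Ptges and Hpgd, whose count ratio is given, the stretches before the first exon that GENCODE M39 gives at these starts are shown, 5′ to 3′ on the gene's strand, with C/EBP-like and GC box matches on either strand in capitals. A match describes the letters and is not a measured site. For Ptges it is chr2:30793356-30793559 (GRCm39, minus strand), which also holds exon sequence of the long noncoding RNA Gm74745 on the other strand, and for Hpgd chr8:56747337-56747542 (plus strand). The Ptgs2 window, chr1:149975532-149975831, lies inside an exon of a longer GENCODE transcript of that gene and is not shown.
Ptges: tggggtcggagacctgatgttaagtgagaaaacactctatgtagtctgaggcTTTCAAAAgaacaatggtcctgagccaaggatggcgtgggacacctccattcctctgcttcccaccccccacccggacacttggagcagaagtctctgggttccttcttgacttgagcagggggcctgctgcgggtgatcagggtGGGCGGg
Hpgd: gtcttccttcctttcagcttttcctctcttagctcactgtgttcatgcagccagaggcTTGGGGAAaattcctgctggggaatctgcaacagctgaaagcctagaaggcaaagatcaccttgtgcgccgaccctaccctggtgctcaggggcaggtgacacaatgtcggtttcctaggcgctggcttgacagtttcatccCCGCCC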

How the data were processed

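Lung RNA of 8 mice was analysed from the raw counts per gene that the authors deposited. Per the submitters' processing notes and the methods, reads were checked with FastQC 0.11.9, trimmed with Trim Galore, aligned to GRCm39 with HISAT2 2.2.1 and counted with featureCounts 2.0.1. The annotation release, strand setting and treatment of multimapping reads are not given in the sources used here. Symbols, positions and exon lengths came from GENCODE M39, which matched 54749 of 55416 identifiers; the 667 others held 0.0533% of counts. Older listed symbols were matched as Akr1b1 and Loricrin.

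The fit used edgeR 4.0.16 under R 4.3.3: filterByExpr by group, TMM factors (0.81 to 1.11) and the quasi-likelihood test in 1 fit of all 8 libraries, with 5 residual degrees of freedom and Benjamini-Hochberg adjustment over 18560 genes. The SE was the size of the log2FC divided by the square root of F. The procedure was tested on simulated data. Pathway genes were named if called in at least 1 comparison with a mean of at least 1 CPM, and the 3 nearest genes used a prior count of 2. Those of Alox5ap are not reported here. Within-library ratios were added after the counts were seen, and exact permutation tests of them are two-sided. Alternatives were DESeq2 1.42.0, other scalings, filters and call rules, and libraries left out. The genes and lists were chosen with earlier results of these data known. Protein sequences were not used here.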

Additional observations from a re-analysis of the deposited data

How the results depend on the processing

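Each log2FC of the 10 enzymes was recomputed under 17 alternatives. Of 510 values, 444 kept their direction and side of the threshold, 38 lost the call, 12 gained one and 16 turned sign. All 16 belonged to differences that were not called, and the cause was not tested. For Ptgis, library size alone gave -0.24, 0.02 and 0.26 for LPS against control, dual-treated against control and dual-treated against LPS. Relative to the shift of all genes these were 0.04, -0.02 and -0.06, with the signs of the main fit. Upper-quartile factors gave -0.04 for LPS against control and 0.01 for dual-treated against LPS. With 1 library left out the Ptgis values ran from -0.06 to 0.18, from -0.22 to 0.10 and from -0.26 to 0.06. Alox5 ran from -0.26 to 0.10 for LPS against control, and for dual-treated against control Ptgs1 ran from -0.10 to 0.30 and Ltc4s from -0.09 to 0.42. Ltc4s was 0.17 for LPS against control without LPS mice 6 and 7.

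With the study's criterion, a fold over 2 and an unadjusted p under 0.05, applied to the same edgeR fit, 3 enzymes were called for LPS against control, 2 for dual-treated against control and 2 for dual-treated against LPS, and 7450, 1944 and 6554 genes in all against 12346, 2997 and 10960. With 1 library left out, 4 to 6, 1 to 3 and 2 to 6 enzymes were called, beside 11004 to 12709, 1220 to 3601 and 8673 to 10626 genes in all, and 5 to 13 pathway genes for dual-treated against control. Fewer samples are part of these settings, and the cause was not tested further. Without LPS mice 6 and 7 together, 3 enzymes were called for dual-treated against LPS, beside 9460 of 19272 genes. With library size alone the median of all genes moved by -0.28 for LPS against control and by 0.32 for dual-treated against LPS, and the share of calls that were higher went from 49% to 35.6% and from 53.6% to 71%. Under the study's criterion that share went from 56.6% to 67.2% for dual-treated against control.

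For the 37 pathway genes named, 1085 of 1183 alternative values kept the call, 98 lost it and 0 turned sign in edgeR or DESeq2. Running the alternatives on these pathway genes was added after their values were seen. Alox12b had no value in 7 of them, among them those without LPS mouse 6, LPS mouse 7 or both, where it did not pass the expression filter. Where a group was left with 1 mouse, that mouse was assumed to vary like the other groups. No paired analysis was possible because control and LPS mice share only number 1, control and dual-treated mice only number 2, and LPS and dual-treated mice none.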
